A study of Arabidopsis thaliana with 6 samples.

Results

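The genes described here are 10 of the alpha-expansins of Arabidopsis thaliana: EXPA1, EXPA3, EXPA4, EXPA5, EXPA6, EXPA8, EXPA10, EXPA11, EXPA15 and EXPA16. They were picked by locus from the 33602 gene models of the series, with their normalised counts over all 3 groups of samples already known. Their levels and fold changes are therefore a description, without a test. The reference annotation names each of the 10 loci as an alpha-expansin, and the same family holds 16 further genes.

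Alpha-expansins are small secreted proteins that loosen the primary cell wall at acid pH, without cutting its polymers. Plasma membrane proton pumps acidify the wall and so activate them, and growing plant tissues depend on this for turgor to enlarge cells. In leaves they act while cells expand, and EXPA1 is also known for a part in the opening of stomata. Most members of the family are used in particular organs, such as EXPA7 and EXPA18 in root hairs.

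The series measured total RNA depleted of rRNA from pieces of young rosette leaves, at Boyes stage 1.13, from plants grown between 18 and 21 °C in light of 90 µE or less. The groups were white borders cut from leaves of the flv/dot4 knock-out line salk_139995 (FLV border), green borders from wild type Col-0 (WT border) and the leaf centre of wild type Col-0 (WT centre), with 2 libraries each. DOT4, the gene disrupted in the mutant, encodes a PPR protein of plastids that takes part in editing the rpoC1 transcript. The labels describe 1 mutant line and no leaf centre of the mutant. The labels do not say whether replicates came from separate plants, so errors measure only the spread between these libraries, which may be technical.

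The libraries held 20448315 to 33214552 counts. DOT4 had 502 and 616 counts in the libraries labelled FLV border, 18 and 52 in those of WT border and 5 and 6 in WT centre. It was thus higher, not lower, under the mutant label; the counts give no position within the gene, and group names below are those of the labels. TMM scaling gave factors of 0.551 and 0.439 to WT centre, 1.22 and 1.14 to WT border and 1.71 and 1.73 to FLV border. Small nucleolar and spliceosomal RNAs took 17.1% of the counts in library 1 of WT centre and 2.16% in library 2, against 3.38 to 9.92% in the other 4 libraries. The leaf markers RBCS1A, CAB3 and CA1 were detected in all 6 libraries.

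The deposited values count whole gene models, and the 10 genes are close relatives. On TAIR10.1, EXPA1 is AT1G69530 at chr1:26141726-26143538 (+ strand), EXPA3 is AT2G37640 at chr2:15787523-15790139 (- strand), EXPA4 is AT2G39700 at chr2:16543832-16545746 (- strand). EXPA5 is AT3G29030 at chr3:11011262-11013451 (- strand), EXPA6 is AT2G28950 at chr2:12431338-12433796 (- strand), EXPA8 is AT2G40610 at chr2:16948791-16950705 (- strand) and EXPA10 is AT1G26770 at chr1:9259432-9261313 (+ strand). EXPA11 is AT1G20190 at chr1:6998335-6999839 (- strand), EXPA15 is AT2G03090 at chr2:916806-918671 (- strand) and EXPA16 is AT3G55500 at chr3:20574752-20576249 (- strand). Their coding sequences, taken from the TAIR10.1 reference, code for 252 to 275 residues. In 45 pairs the coding sequences were 62.3 to 81.1% identical over their aligned bases, with EXPA4 and EXPA16 the closest pair and EXPA1 and EXPA10 next at 79.7%. No run of 50 bases in the transcripts of a member occurred in a transcript of any other gene. Of the 10 genes, 8 have 3 coding exons, as do 4 of the 15 other alpha-expansins with a coding sequence. The members lie on chromosomes 1, 2 and 3, with 5 of them on chromosome 2, where none of the other 16 lies.

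The upstream sequences of EXPA1 and EXPA10 are shown because these 2 genes are close in coding sequence and share upstream letters, yet had unlike levels over the libraries. Each is the 250 bases before the annotated gene start, read 5′ to 3′ on the gene's strand from RefSeq TAIR10.1. EXPA1 is at chr1:26141476-26141725 and EXPA10 at chr1:9259182-9259431, both on the + strand. Capitals mark the runs of at least 8 letters that both hold and that under 1% of all upstream windows hold.
EXPA1: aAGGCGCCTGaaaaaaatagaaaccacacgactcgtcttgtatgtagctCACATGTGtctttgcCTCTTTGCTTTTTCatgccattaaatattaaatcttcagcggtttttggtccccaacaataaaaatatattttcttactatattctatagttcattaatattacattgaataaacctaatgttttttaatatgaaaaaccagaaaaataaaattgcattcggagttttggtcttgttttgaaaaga
EXPA10: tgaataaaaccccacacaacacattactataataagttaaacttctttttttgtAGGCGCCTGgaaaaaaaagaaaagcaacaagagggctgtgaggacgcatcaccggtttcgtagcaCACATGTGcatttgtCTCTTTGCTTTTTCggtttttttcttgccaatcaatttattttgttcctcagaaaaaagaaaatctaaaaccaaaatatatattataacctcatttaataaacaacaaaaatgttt

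The 3 marked runs stand in the same order in both windows. CTCTTTGCTTTTTC, on either strand, is in 2 of 27443 upstream windows of nuclear protein-coding genes, which are these 2. AGGCGCCTG is in 3 windows and CACATGTG in 103 (0.375%). This run of 14 letters was the longest shared by any of the 45 pairs. These runs were looked for after the sequences had been seen. They are a description of shared letters, and binding was not tested. CACATGTG holds the letters of the E-box.

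EXPA11 and EXPA15 are shown because their levels ran in opposite directions over the groups. EXPA11 is at chr1:6999840-7000089 and EXPA15 at chr2:918672-918921, both on the - strand. Capitals mark matches to the letters of the E-box CANNTG and the TATA box TATAAA, each searched on both strands. The TATA box matches shown read TTTATA, on the opposite strand, from 217 bases before the gene start in EXPA11 and 239 in EXPA15. Whether they act as TATA boxes was not tested.
EXPA11: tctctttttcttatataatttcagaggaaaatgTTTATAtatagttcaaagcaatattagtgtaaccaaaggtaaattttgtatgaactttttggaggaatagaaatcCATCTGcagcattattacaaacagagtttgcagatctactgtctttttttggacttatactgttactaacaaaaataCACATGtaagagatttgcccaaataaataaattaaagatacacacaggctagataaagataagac
EXPA15: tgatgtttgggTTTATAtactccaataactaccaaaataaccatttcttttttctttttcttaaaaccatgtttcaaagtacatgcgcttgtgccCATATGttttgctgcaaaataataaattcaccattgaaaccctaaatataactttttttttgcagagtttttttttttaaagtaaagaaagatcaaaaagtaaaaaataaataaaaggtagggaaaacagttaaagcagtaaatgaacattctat

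The letters of an E-box were in the windows of 7 of the 10 members and in 55.3% of all windows. Those of the TATA box, on either strand and at any distance, were in 6 of 10 and in 47.3%. The auxin response letters TGTCTC were in 3 members, EXPA5, EXPA6 and EXPA10, and in 10.9% of all windows. The TCP letters GGNCCC were in EXPA1 alone and in 7.35% of all windows. The G-box CACGTG, which is one kind of E-box, was in 0 members and in 6.49% of all windows.

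Levels are given as CPM, the count scaled to the TMM-adjusted library size, and compared between genes as RPKM, which divides CPM by the length of the gene model in kilobases. Over the whole alpha-expansin family, the 10 genes held 93.9 to 98.1% of the summed RPKM of a library. EXPA1 and EXPA6 were the most abundant in the margins as group means. For EXPA1 the mean RPKM was 97.6 in WT border and 72.7 in FLV border, for EXPA6 78.7 and 93.2. In WT centre the order was EXPA1 at 302, EXPA8 at 248, EXPA6 at 99.1 and EXPA11 at 92.2 RPKM. Within libraries, EXPA6 was the most abundant in library 1 of every group. EXPA1 was the most abundant in library 2 of every group.

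**Figure D1:**
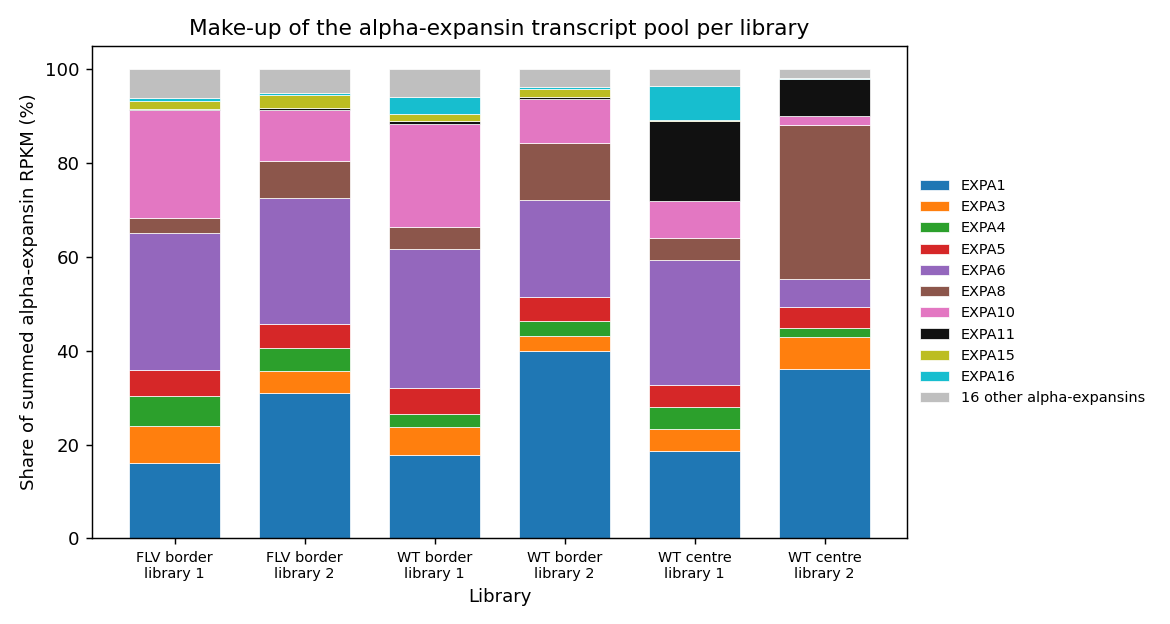
Share of the summed RPKM of all 26 alpha-expansin genes taken by each of the 10 genes described (colours) and by the 16 others together (grey), for each of the 6 libraries; bars add to 100%. EXPA11 took 17.1 and 7.77% in the WT centre libraries and under 1% in the other 4, and EXPA8 took 32.8% in library 2 of WT centre and at most 12.2% in the others.

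Of the 10 genes, EXPA11 had the largest fold change between leaf positions. It had 81.2 and 129 CPM in WT centre, 2.21 and 1.95 in WT border and 0.531 and 1.25 in FLV border. Both centre libraries were far above all 4 margin libraries, and FLV border lay below WT border without overlap. The log2 fold change from WT centre to WT border stood at -5.66 ± 0.63 (SE), so the centre was 50.4-fold higher. From WT border to FLV border it was -1.22 ± 0.54, moving to -0.74 or -1.96 when library 1 or 2 of FLV border was left out. In raw counts, the margins had 26, 62, 77 and 56 reads and the centre 914 and 1875.

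EXPA15, studied in the shoot apex, ran the other way. It had 9.51 and 9.50 CPM in the FLV border libraries, 5.25 and 7.99 in those of WT border and 1.24 and 2.54 in WT centre. None of the 3 groups overlapped with another. Its log2 fold changes were 1.79 ± 0.54 from WT centre to WT border and 0.52 ± 0.50 from WT border to FLV border. EXPA11 and EXPA15 had the most opposite levels of all pairs of members, with a Pearson r of -0.930 over the 6 libraries on the log2(CPM + 0.5) scale. The points of such a correlation share the group and the depth of a library.

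**Figure D2:**
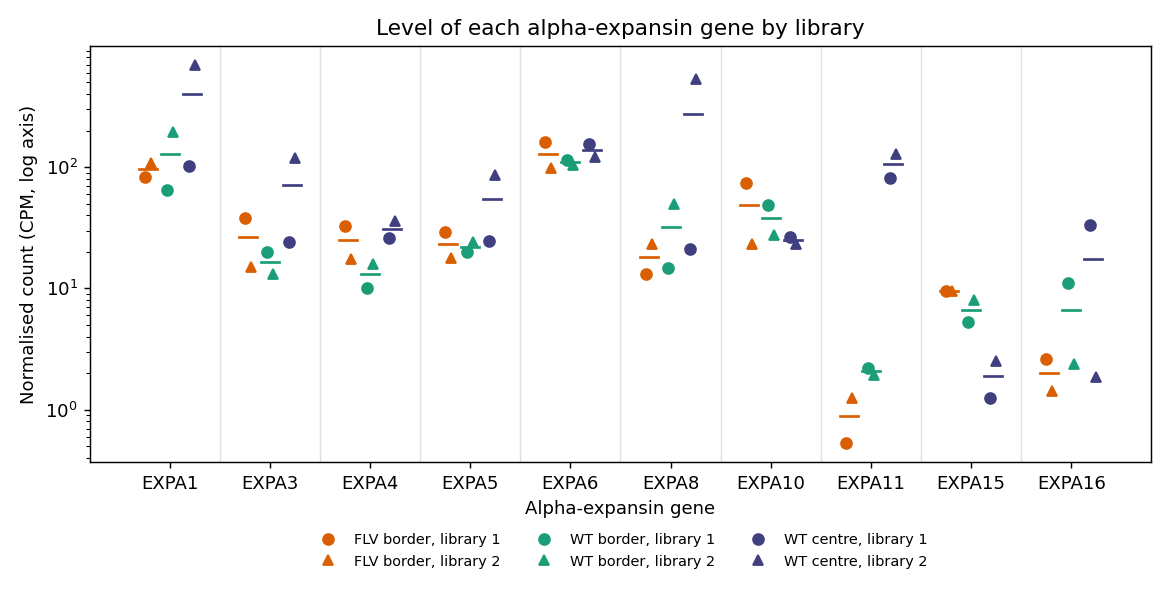
Normalised count (CPM, log axis) of each of the 10 alpha-expansin genes in the 6 libraries; colours are groups, circles are library 1, triangles library 2 and short lines the group mean. EXPA11 is high in both WT centre libraries, EXPA15 is low in both, and EXPA8 and EXPA16 differ most between the 2 libraries of WT centre.

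EXPA8 and EXPA1 are known as growth genes whose promoters are bound by the transcription factor HBI1. EXPA8 had 21.1 and 528 CPM in WT centre, 14.7 and 49.2 in WT border and 13.2 and 23.4 in FLV border. Its high value was library 2 of WT centre alone, and the groups overlapped. EXPA1 had 102 and 696 CPM in WT centre, 64.8 and 193 in WT border and 83.6 and 109 in FLV border. Again library 2 of WT centre was far above the rest. For both genes library 2 was the higher in every group. The levels of the 2 genes had a Pearson r of 0.989 over the 6 libraries, the highest of the 45 pairs of members. From WT centre to WT border EXPA8 had a log2 fold change of -3.10 ± 1.22 and EXPA1 of -1.63 ± 0.87. Without library 2 of WT centre these became 0.68 and 0.42, the opposite direction.

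EXPA16 had 33.1 and 1.85 CPM in WT centre, 10.98 and 2.40 in WT border and 2.61 and 1.44 in FLV border. Here library 1 was the higher in every group, and all 3 groups overlapped. Its log2 fold change from WT centre to WT border, -1.38 ± 1.10, became 1.91 without library 1 of WT centre. Among all tested genes, the difference between the 2 libraries of WT centre was no larger than that of EXPA8 in 99.8% and than that of EXPA16 in 99.5%.

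EXPA3, EXPA4 and EXPA5 were lower in WT border than in WT centre without overlap. EXPA5, known for a part in brassinosteroid-dependent growth, had 24.7 and 85.2 CPM in WT centre, 19.8 and 24.2 in WT border and 29.0 and 17.8 in FLV border. EXPA3 had 24.3 and 118 CPM in WT centre, 19.8 and 13.2 in WT border and 38.0 and 14.9 in FLV border. For both genes library 2 of WT centre was far above the rest, and library 1 lay within the range of FLV border. EXPA4 had 26.0 and 36.2 CPM in WT centre, 10.03 and 16.02 in WT border and 33.0 and 17.4 in FLV border, so WT border was the lowest group. The log2 fold changes from WT centre to WT border were -2.11 ± 0.77 for EXPA3, -1.26 ± 0.50 for EXPA4 and -1.32 ± 0.61 for EXPA5. With library totals in place of TMM factors EXPA3 stood at -0.73, EXPA4 at 0.015 and EXPA5 at 0.021. Without library 2 of WT centre EXPA3 stood at -0.46 and EXPA5 at -0.079. From WT border to FLV border EXPA4 was at 0.95 ± 0.50, and at 0.41 without library 1 of FLV border.

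EXPA6 had the smallest fold change of the members between the wild type groups. It had 160 and 98.5 CPM in the FLV border libraries, 113 and 105 in those of WT border and 154 and 120 in WT centre, a log2 fold change of 0.24 ± 0.48 from WT border to FLV border and -0.33 ± 0.48 from WT centre to WT border. EXPA10, which alters leaf size when its expression is changed, had 73.8 and 23.4 CPM in the FLV border libraries, 48.5 and 27.3 in those of WT border and 26.7 and 23.4 in WT centre. WT border lay just above WT centre, while FLV border had values both above and below those of WT border. With library totals EXPA6 turned to 0.91 from WT centre to WT border.

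FLV border against WT border asks how the white mutant margin differs from the green one. No member passed an adjusted p of 0.05 in edgeR, where 0.0595% of the 21852 tested genes did, 0.0549% as higher and 0.00458% as lower. An unadjusted p under 0.05 was found for 0 members and 1209 of the 21852 tested genes. DESeq2 called 0 members and 194 of all tested genes, and limma-voom 0 members and 15. Nothing is read from these counts, since the members were chosen with their values in both comparisons known. FLV border and WT border did not overlap for 3 of the 10 members, EXPA4 and EXPA15 above and EXPA11 below, against 38% of all tested genes (19.3% above and 18.7% below). The log2 fold changes ran from -1.73 ± 1.12 for EXPA16 to 0.95 for EXPA4, with a median of 0.17 beside 0.020 over all tested genes. Of the 10, 6 were positive, and 2 were so without library 1 of FLV border, where the median was -0.29. The sign was kept over all 15 alternatives by EXPA4, EXPA11, EXPA15 and EXPA16, while 6 members changed sign in 1 or 2 of them. EXPA1 reached 0.55 and EXPA8 0.30 without library 2 of WT border, and EXPA10 fell to -0.71, EXPA3 to -0.16, EXPA5 to -0.32 and EXPA6 to -0.16 without library 1 of FLV border. Standard errors were 0.48 to 1.13 with 2 libraries a group. Differences of this size were not resolved, and 1 standard error is not the limit above which they would be. The mesophyll markers RBCS1A, CAB3 and CA1 summed to 2136 and 5820 CPM in the FLV border libraries against 10353 and 17643 in WT border, with negative fold changes for 3 of 3 and 0 called. The 3 phloem markers lay below WT border without overlap, with a median of -0.53, and 3 of 5 epidermis markers lay above it without overlap, with 0 called in either list. The part of these cell types in the expansin values was not tested.

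The second comparison sets the green margin of Col-0 leaves beside their middle. EXPA11 alone of the 10 members passed the threshold, where 6.13% of all tested genes did and 3.00% did as lower. Nothing is read from that count either. The groups did not overlap for 7 of 10, with 5 below and 2 above in the margin, against 57.8% of all tested genes (27.2% below and 30.6% above). FLV border and WT centre did not overlap for 2 of 10, EXPA15 above and EXPA11 below, against 62.3% of all tested genes (34.2% above and 28.1% below). The median log2 fold change was -1.35 beside -0.016 over all tested genes, with 8 of 10 negative. It was -0.11 with library totals, where the median of all tested genes rose to 1.24 and 5 of 10 members were negative, and -0.25 without library 2 of WT centre, where 6 of 10 were. Without library 1 of WT border EXPA11 stood at -5.67 and without library 2 at -5.49. Such a fit leaves 1 library in WT border, so only the effect size is given. The members called changed with the setting, as did the calls over all genes. DESeq2 added EXPA3 and EXPA8 as lower and EXPA15 as higher, where it called 2431 of 21852 tested genes lower and 1784 higher. Library totals added EXPA10 and EXPA15 as higher, where 7448 of 21852 were called higher and 350 lower. Nothing is read from these added calls.

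**Figure D3:**
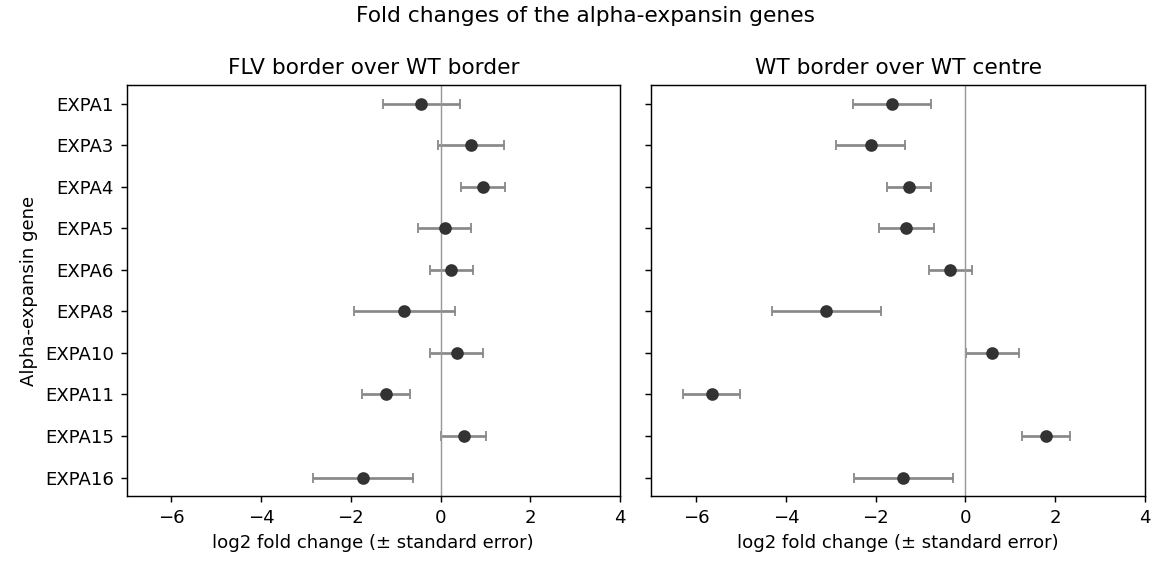
Log2 fold change with its standard error (horizontal bars) of the 10 alpha-expansin genes, for FLV border over WT border (left) and WT border over WT centre (right), from the edgeR model of all 6 libraries. On the left the values lie between -1.73 and 0.95, and on the right EXPA11 lies at -5.66 and EXPA15 at 1.79.

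Cell type markers also differed between the leaf pieces, and in such bulk samples fewer cells of a type and less RNA per cell cannot be told apart. From WT centre to WT border, 3 of 3 mesophyll markers had negative fold changes and 0 were called, with sums of 10353 and 17643 CPM against 22069 and 55834. The 3 markers of dividing cells had positive fold changes, 1 of them called, and summed to 25.0 and 9.24 CPM against 4.53 and 1.44. Of the 5 xylem markers 1 was called higher and 1, XCP1, overlapped between the groups at a log2 fold change of 0.043 ± 0.45, with sums of 48.0 and 48.9 against 29.5 and 17.7. Of the 5 epidermis markers 4 had positive fold changes and 2 were called higher, with sums of 581 and 415 against 573 and 808. The other, LTP1, was lower without overlap at -1.62 ± 0.59, with 235 and 149 CPM against 454 and 729. The 6 guard cell markers summed to 14.7 and 27.3 against 17.3 and 8.11. The 3 phloem markers summed to 128 and 237 against 99.4 and 192. No marker was at 0 in any library, and the part of cell make-up in the expansin values was not tested.

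In total, the 10 genes had 495 and 1740 CPM in WT centre, 309 and 440 in WT border and 443 and 316 in FLV border. Library 2 of WT centre held over 3 times as much as any other library on this scale. As CPM of the unscaled library total, the sums were 273 and 763 in WT centre, 379 and 502 in WT border and 758 and 547 in FLV border. Library 2 of WT centre was then next to library 1 of FLV border. How high the centre stands as a whole thus depends on the scaling, while the fold change of EXPA11 stayed between -5.89 and -4.36 in all 15 alternatives.

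Of the other 16 alpha-expansins, 4 passed the low-count filter and 0 were called in either comparison. EXPA14, studied in roots, had 3.82 and 1.65 CPM in WT centre, 0.201 and 0.625 in WT border and 1.84 and 0.9503 in FLV border. WT border was thus the lowest group (log2 fold change relative to WT centre -2.72 ± 0.84, edgeR adjusted p = 0.0771, and from WT border to FLV border 1.76 ± 0.81, adjusted p = 0.922). EXPA9 had 11.7 and 21.2 CPM in WT centre, 6.97 and 7.85 in WT border and 3.98 and 2.99 in FLV border, falling in that order without overlap. Its log2 fold change was -1.15 ± 0.47 from WT centre to WT border (adjusted p = 0.144, edgeR) and -1.09 ± 0.47 from WT border to FLV border (adjusted p = 0.894).

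EXPA13 and EXPA20 showed no called difference either. EXPA13 had 11.2 and 7.58 CPM in the FLV border libraries, 8.51 and 5.94 in those of WT border and 1.42 and 7.49 in WT centre, with log2 fold changes of 0.38 ± 0.68 from WT border to FLV border (adjusted p = 1, edgeR) and 0.69 ± 0.70 from WT centre to WT border (adjusted p = 0.525). EXPA20 had 10.2 and 2.91 CPM in the FLV border libraries, 2.78 and 0.903 in those of WT border and 0.0888 and 1.17 in WT centre, with 1.83 ± 0.96 (adjusted p = 0.977, edgeR) and 1.496 ± 1.04 (adjusted p = 0.349). Without library 2 of WT centre, EXPA13, EXPA14 and the beta-expansin EXPB3 stood at 2.43, -3.13 and 4.97 from WT centre to WT border. The remaining 12 alpha-expansins, among them the root hair genes EXPA7 and EXPA18 and the seed germination gene EXPA2, had at most 14 counts in any library.

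No gene of the related families was called in either comparison. Beta-expansins are wall-loosening proteins too, and 2 of the 6 passed the filter. EXPB3 had 25.5 and 18.4 CPM in the FLV border libraries, 38.9 and 19.0 in those of WT border and 0.977 and 15.9 in WT centre. It was low in library 1 of WT centre alone (log2 fold change from WT centre to WT border 1.77 ± 0.96, adjusted p = 0.241, edgeR; FLV border over WT border -0.40 ± 0.92, adjusted p = 1). EXPB1 had 1.67 and 1.58 CPM in the FLV border libraries, 4.67 and 7.26 in those of WT border and 4.98 and 20.4 in WT centre. FLV border was the lowest group without overlap (-1.87 ± 0.67 over WT border, adjusted p = 0.774, edgeR; WT border over WT centre -1.09 ± 0.65, adjusted p = 0.282).

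All 4 expansin-like genes passed the filter, and 0 were called. EXLA1 lay between 1.78 and 6.84 CPM, EXLA2 between 0.809 and 4.95, EXLA3 between 0.0202 and 1.33 and EXLB1 between 1.18 and 12.7 over the 6 libraries. Their log2 fold changes spanned -2.48 to -0.42 from WT centre to WT border and -0.48 to 0.15 from WT border to FLV border.

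Xyloglucan endotransglucosylase/hydrolase (XTH) genes code for enzymes that cut and rejoin the xyloglucan tethers of the wall. From WT centre to WT border, 8 of the 21 tested were called, 2 higher and 6 lower, against 3.13 and 3.00% of all tested genes. XTH7 had 178 and 480 CPM in WT centre and 16.7 and 11.02 in WT border (-4.56 ± 0.68 on the log2 scale, adjusted p = 0.0282, edgeR). XTH4 had 144 and 123 CPM in WT centre and 26.0 and 13.4 in WT border (-2.76 ± 0.66, adjusted p = 0.0457, edgeR). The centre was thus the higher in both libraries for each, as for EXPA11.

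XTH24 fell from 12.7 and 4.95 CPM in WT centre to 1.12 and 0.486 in WT border (-3.44 ± 0.71, adjusted p = 0.0377, edgeR). XTH25 fell from 1.33 and 0.824 to 0.0573 and 0.104 (-3.69 ± 0.82, adjusted p = 0.0411, edgeR). It had only 15 and 12 counts in WT centre and 2 and 3 in WT border. XTH9 and XTH16 went the other way. XTH9 rose to 196 and 50.2 CPM in WT border from 12.3 and 2.13 in WT centre (4.11 ± 0.95, adjusted p = 0.0442, edgeR), and XTH16 to 13.3 and 9.73 from 2.22 and 0.618 (3.04 ± 0.63, adjusted p = 0.0377). XTH31 and XTH19, named after their values were seen, were also called lower. The median log2 fold change of the XTH genes was -1.40 with all 6 libraries. It was -1.61 and -1.59 without library 1 or 2 of WT border, and -1.63 and -1.64 without library 1 or 2 of FLV border. Without library 1 or 2 of WT centre it was -1.49 and -1.31. With library totals it stood at -0.097, where the median of all tested genes was 1.24. The calls depended on the setting. The length offset left 1 XTH gene higher and 1 lower, where 215 and 196 of all tested genes were called. Library totals gave 3 and 3, where 7448 and 350 of all tested genes were.

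From WT border to FLV border, 0 of 21 XTH genes were called in edgeR, with a median of 0.45 and 3 at an unadjusted p under 0.05. DESeq2 called 2, both higher. XTH19, named after its values were seen, had 4.08 and 0.809 CPM in the FLV border libraries and 0.0287 and 0.0347 in the WT border libraries (log2 6.11 ± 1.13, adjusted p = 0.244, edgeR), from 1 count in each WT border library.

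None of the plasma membrane proton pumps and cellulose synthesis genes was called in either comparison by the main edgeR fit, with TMM factors and the low-count filter. From WT centre to WT border, AHA1, AHA3 and CSI1 were called higher with library totals, at 3.26, 3.12 and 3.06. There 7448 of 21852 tested genes were called higher and the median of all was 1.24. With DESeq2 they were called at 1.96, 1.77 and 1.73, where 1784 of 21852 were called higher. AHA1 stood at 2.58 without library 1 of WT centre, and CSI1 at 1.93 without library 2. With no filter AHA1 and CSI1 were called, where 1343 of 33326 genes were called higher. With limma-voom CSI1 was called, where 400 of 21852 were called higher. Of 11 pump genes, 9 had a positive log2 fold change from WT centre to WT border, with a median of 0.26. AHA1, a main pump of leaf cells, had 209 and 117 CPM in WT centre and 749 and 594 in WT border (2.04 ± 0.59, adjusted p = 0.0674, edgeR), and AHA3 had 21.4 and 29.7 in WT centre and 41.1 and 145 in WT border (1.86 ± 0.63, adjusted p = 0.0941). Of 9 genes for cellulose synthesis in primary walls, 9 were positive with a median of 0.81. CSI1, which links cellulose synthase to microtubules, had 36.2 and 37.4 CPM in WT centre and 111 and 148 in WT border (1.81 ± 0.46, adjusted p = 0.0517, edgeR). From WT border to FLV border, 0 of either list were called, and CESA9, a cellulose synthase subunit, had 1.32 and 1.29 CPM in WT border against 3.49 and 2.61 in FLV border (1.22 ± 0.59, adjusted p = 0.942, edgeR).

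Among 13 tested growth regulators, 1 was called from WT centre to WT border, where 6.13% of all tested genes were. IBH1, a bHLH protein that binds and inhibits growth-promoting factors such as HBI1, had 29.0 and 5.36 CPM in WT centre and 1.29 and 1.63 in WT border (-3.55 ± 0.78, adjusted p = 0.0408, edgeR). Its fold change was -1.82 without library 1 of WT centre. Without either WT border library it was -3.30 and -3.63, and without either FLV border library -3.48. These fits leave 1 library in a group, so only the effect size is given. HBI1 itself, named after its values were seen, had 15.3 and 23.4 CPM in WT centre, 11.2 and 22.1 in WT border and 4.16 and 13.2 in FLV border.

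**Figure D4:**
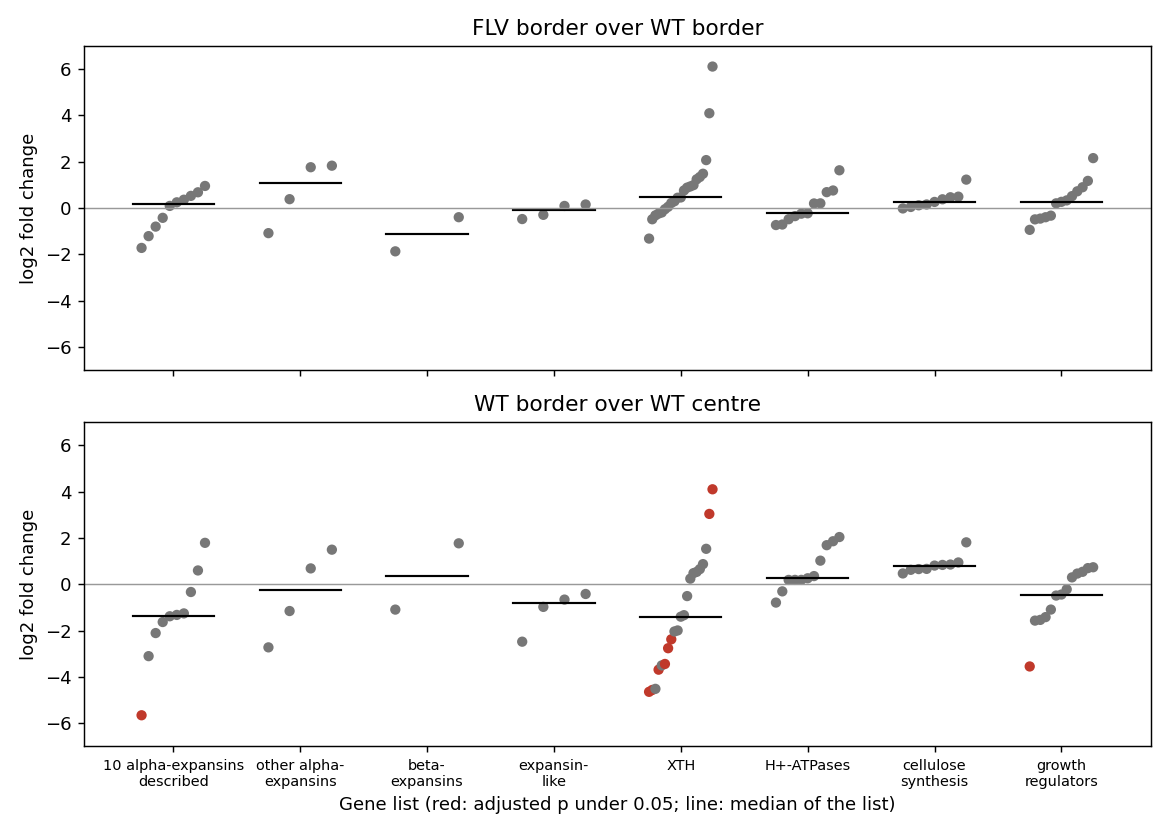
Log2 fold changes of the tested genes of 8 lists (points; red where the edgeR adjusted p was under 0.05) with the median of each list (black line), for FLV border over WT border (top) and WT border over WT centre (bottom). In the lower panel 8 XTH genes, EXPA11 and the growth regulator IBH1 are red; in the upper panel no point is.

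By likeness of level, the mean of the 10 centred profiles was compared with 5193 named nuclear protein-coding genes of at least 5 CPM. The 6 most alike, with Pearson r of 0.987 to 0.995 over 6 libraries, were LBD38, MT2B, CYP86A2, ELF5A-3, PRF1 and RBL3. LBD38, a regulator of nitrogen responses, had 64.2 and 324 CPM in WT centre and 10.5 to 20.4 in the other 4 libraries. MT2B, a metallothionein, had 670 and 2733 CPM in WT centre and 150 to 251 elsewhere. As many as 95 of these genes had r over 0.95, and the members themselves ranged from -0.720 to 0.928 against their own mean; all 6 were highest in library 2 of WT centre.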

How the data were processed

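Per the file headers, the authors deposited raw counts of mapped reads per gene model, 1 table per library, written by a program named sam2pkm, with the length of each model as the other value. TAIR10 is named as the genome build, per the submitters' processing notes. The aligner, the handling of reads with several matches and the use of strand are not given in the sources used here. Of the 10 genes, 2 had a model length found in the TAIR10.1 annotation, so positions and sequences are those of TAIR10.1. Of 118 list genes 117 carried the listed name there, and EXPA26 (there EXP26) was kept by locus.

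From these counts, 15 rRNA loci were left out, genes were kept by filterByExpr and scaled by TMM, and the 6 libraries entered a quasi-likelihood model having 1 mean for each group (edgeR 4.0.16, robust=TRUE, 3 residual degrees of freedom). The p-values are two-sided, with Benjamini-Hochberg adjustment across 21852 tested genes, and those under 0.05 are called. With 2 libraries against 2 an exact permutation test cannot go below p = 0.333, so none was used. Precision is limited by 2 libraries a group. The code was tested on simulated counts.

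The members and gene lists were chosen with earlier results of these data known. Besides the members, the named genes are the tested expansins, up to 6 called genes of each other list and comparison by smallest p, otherwise the 2 with the smallest p, and the 6 most alike in level. The alternatives were RLE scaling, library totals, TMM from nuclear genes, no filter, only the 4 libraries compared, a replicate block, DESeq2 1.42.0, limma-voom (limma 3.58.1), an offset for model length and each library left out.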

Additional observations from a re-analysis of the deposited data

How the results depend on the processing

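The expansin values rest on few libraries. For WT border against WT centre, the median log2 fold change of the 10 genes moved from -1.35 to -0.11 with library totals, and it ran from -1.66 to -0.25 over the fits without 1 library. For FLV border against WT border that range was -0.29 to 0.46. With library totals the median of the 10 genes there was 0.71, where the median of all tested genes was 0.56. Superfamily genes outside the 10 that were called numbered 0, but for WT border against WT centre 2 with library totals (EXPA13 and EXPB3), 1 with DESeq2 (EXPA14) and 0 to 3 without 1 library. For FLV border against WT border they numbered 0 in every alternative.

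The count of all genes called in FLV border against WT border, 13, became 23 with no filter, 0 with the replicate block, 194 with DESeq2, 2 with the length offset and 0 to 29 without 1 library. In WT border against WT centre it went from 1339 to 7798 with library totals, 2055 with no filter, 337 with the 4 libraries compared, 4215 with DESeq2, 858 with limma-voom, 411 with the length offset and 1 to 3260 without 1 library; the cause was not tested. Library totals took the calls from 683 higher and 656 lower to 7448 and 350.

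Sign changes among the other tested alpha- and beta-expansins were EXPB3, to 0.12 with library totals and 0.21 or -0.84 when library 1 or 2 of WT border was left out (FLV border over WT border), and, for WT border over WT centre, EXPA9 to 0.15 and EXPB1 to 0.25 with library totals and EXPB1 to 0.35 without library 2 of WT centre (-1.72 without library 1). Whether the library number pairs samples was not settled. Deviations from the group mean correlated over genes at 0.43 between FLV border and WT border, so these groups shared part of their library difference. The correlation was 0.10 between WT border and WT centre and 0.052 between FLV border and WT centre. The main fit has no term for the library number. With the replicate block the median of the 10 genes was 0.18 and -1.24 in the 2 comparisons. Genes called then numbered 0 in FLV border against WT border and 1080 in WT border against WT centre.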
